A study of Mus musculus with 4 samples.

Results

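Early genetic obesity was examined in brown adipose tissue (BAT) by setting the single-cell library of 8-week-old db/db mice (db/db 8w) against the library of wild-type (WT) mice. All barcodes that passed the quality limits entered, namely those with more than 250 but fewer than 6000 genes, more than 500 but fewer than 30000 unique molecular identifiers (UMIs, each a tagged RNA molecule) and under 15% of UMIs from mitochondrial genes. This left 11648 barcodes of db/db 8w and 5944 of WT, 17592 of the 28887 kept in the 4 libraries of the series. A barcode was placed in the macrophage gate when it held at least 3 UMIs of C1qa, C1qb and C1qc together and more of these than of Col1a1, Col3a1 and Dcn, and in the stromal gate by the reverse rule. The macrophage gate held 2837 barcodes of db/db 8w and 1244 of WT, and the stromal gate 7773 and 4529.

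Both libraries came from the stromal vascular fraction, what is left of fat after collagenase digestion without its floating adipocytes. The methods call all mice male, and each library pooled the cells of 3 mice. WT mice were C57BL6/J animals aged 10 weeks. The db/db mice carried the Lepr db mutation on the same labelled strain, were aged 8 weeks and came from another supplier. The methods name their strain as B6.BKS(D)-Leprdb/J. By the methods, tissues were harvested after fasting and the cells meant for sequencing were frozen. A db/db animal lacks leptin receptor signalling in every tissue, so the model is not specific to fat. Values of the other 2 libraries are set beside these at a few places. They came from db/db mice aged 16 weeks and from C57BL6/J mice on a high-fat diet. The latter are labelled as aged 10 weeks, while the methods give that age as the start of a diet of 10 weeks. The 16-week library went against the stated sex. It held the female-specific RNA Xist at 207 CPM (counts per 1000000 UMIs) and the Y-linked Ddx3y at 7.64 CPM, where WT held 0.688 and 97.9 CPM and db/db 8w 0.187 and 84.7 CPM, so sex cannot be told apart from age in its values. With 1 library per group no test was possible, and genotype, strain background, age, supplier, pool and preparation cannot be told apart. Every interval given here is a 95% interval and covers counting error only, not the spread between mice or preparations.

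Brown adipose tissue burns fatty acids for heat, and its stroma holds the cells that renew and support its adipocytes. Resident perivascular macrophages (PVMs) line vessels and bear scavenger and lectin receptors such as Lyve1, Folr2 and the Cd209 family. Lipid-associated macrophages (LAMs) gather in obese fat, take up lipid and carry a programme of fatty acid handling, lysosomal and matrix-degrading genes with the receptor Trem2. In the stroma, progenitors marked by Pi16 and Dpp4 lie upstream of committed preadipocytes that make basement membrane collagens and switch on Pparg.

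The kept barcodes of db/db 8w were shallower, with a median of 3193 UMIs against 6218.5 in WT. They held more mitochondrial RNA, with a median of 5.94% against 4.29%. This median was higher in the stromal gate, at 6.40% against 3.60%, but lower in the macrophage gate, at 4.92% against 6.67%. The depth gap lay in the stroma, where the median was 2777 UMIs in db/db 8w and 6821 in WT and where 22.6% and 2.89% of barcodes held under 1000 UMIs. Macrophage-gated barcodes were closer in depth, at 4975 and 5380. Lepr itself was too sparse to check the genotype, with 16 UMIs in db/db 8w and 25 in WT over all kept barcodes, and a 3′ count does not show the mutation. Ttr, a thyroid hormone carrier made chiefly by liver and choroid plexus, stood at 348 CPM in WT and at 1 UMI in db/db 8w. Only 21 barcode sequences were shared, 0.353% of the kept WT barcodes. Ucp1, the uncoupling protein of brown adipocytes, reached no more than 2.02 CPM in the stromal gate, so mature adipocytes were next to absent from the labelled fraction.

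Free RNA and mixed barcodes were gauged by the markers of the other lineage. Stromal gate markers summed to 483 CPM in the macrophage gate of db/db 8w and 713 CPM in that of WT, against 31926 and 28933 CPM in the stromal gates. C1q genes summed to 467 CPM in the stromal gate of db/db 8w and 176 CPM in that of WT, against 6975 and 10134 CPM in the macrophage gates. Macrophage RNA was therefore more evident in the db/db 8w stroma, and stromal RNA more evident in the WT macrophages. Levels outside the gate are plotted for the genes named by rank and given in the text for some others, and the part of free RNA in the differences was not tested.

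The macrophage gate took 24.4% of the kept barcodes in db/db 8w (23.6 to 25.1) and 20.9% in WT (19.9 to 22.0), a difference of 3.43 percentage points (2.12 to 4.72). The stromal gate took 66.7% (65.9 to 67.6) and 76.2% (75.1 to 77.3), a difference of -9.46 points (-10.8 to -8.07). The gain of the macrophage gate hinged on the mitochondrial limit. With a limit of 10% it was 8.23 points, and without any limit the order turned, with 19.4% in db/db 8w and 21.8% in WT. The lower stromal share was kept under every limit, with 69.3% against 73.7% where none was set. When each barcode was first thinned to 1000 UMIs, which left out 2181 barcodes of db/db 8w and 220 of WT, the macrophage share was 24.0% against 20.0% and the stromal share 61.2% against 74.6%.

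**Figure D1:**
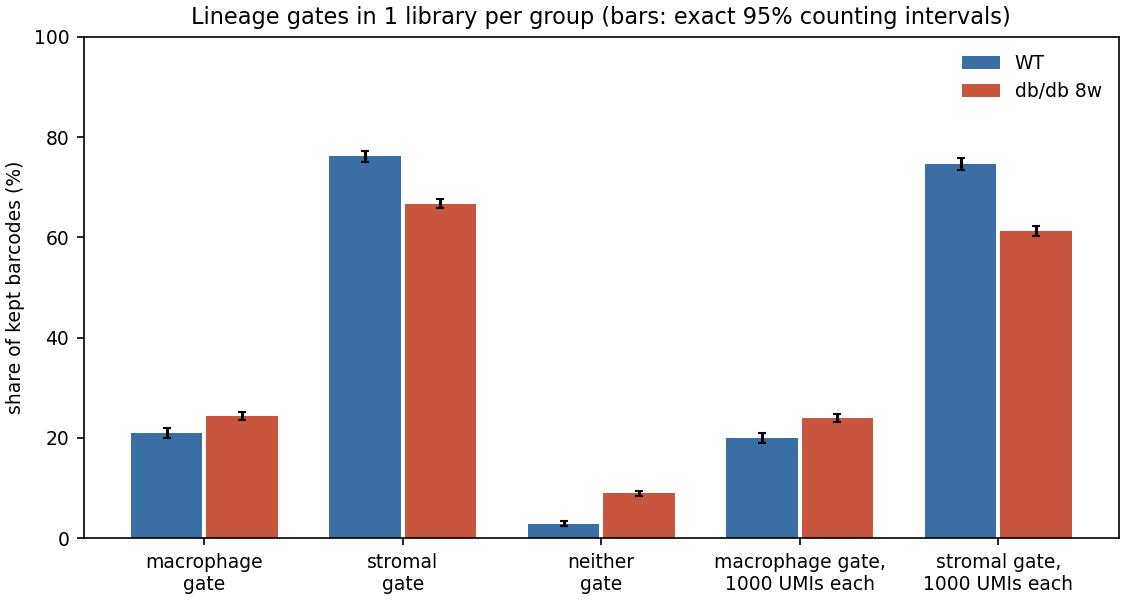
Share of kept barcodes (%) in each lineage gate for WT (blue) and db/db 8w (red), as deposited and after thinning each barcode to 1000 UMIs, with exact 95% binomial intervals. The stromal share was lower in db/db 8w, 66.7% against 76.2%, and the share in neither gate was higher, 8.91% against 2.88%.

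Barcodes in neither gate made up 8.91% of db/db 8w (8.40 to 9.44) and 2.88% of WT (2.47 to 3.33). Each of them was counted under the class with the most marker UMIs among 14 classes, if it held at least 3 of these. Neutrophil markers led in 80 barcodes of db/db 8w and 3 of WT, 0.687% and 0.0505% of all kept barcodes. Natural killer and innate lymphoid markers led in 1.0% and 0.236%, T cell markers in 0.575% and 0.202%, B cell markers in 0.481% and 0.135%, and endothelial markers in 0.446% and 0.101%. For each of these 5 classes the interval of the difference in the neither-gate share lay above 0. Inside the gates some of the same markers went the other way. There a barcode counted for a class with at least 3 of its UMIs, whatever it held of the others. The natural killer and innate lymphoid markers were Ncr1, Klrb1c, Gzma, Il7r, Rora and Gata3. At least 3 of their UMIs were held by 9.61% of stromal barcodes in db/db 8w and 21.7% in WT. Which of these genes gave the UMIs was not split out, so the share does not count lymphoid cells. B cell markers were held by 5.11% and 24.6% of macrophage barcodes. In the macrophage gate the natural killer and innate lymphoid markers were more frequent in db/db 8w, at 8.92% against 2.01%. These shares were not thinned, and stromal barcodes were shallower in db/db 8w, with a median of 2777 UMIs against 6821. The cells were sorted before loading by a gate that the methods do not state, so these shares describe the sorted fraction and not the tissue.

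In the macrophage gate 7346 genes averaged at least 10 CPM over both libraries. Of these, 360 were at least 2-fold higher in db/db 8w, 4.9% of the genes compared, and 358 were at least 2-fold lower, 4.87%. The median log2 ratio of all these genes was 0.02. Against this background 15 of the 19 LAM genes were at least 2-fold higher and none was 2-fold lower, with a median log2 ratio of 2.72. Both the list and the comparison were chosen with earlier results of these libraries in view, so the count describes the programme and is not independent evidence of its direction. Some members were no higher inside the gate of db/db 8w than outside it. Fabp4 stood at 2071 CPM inside and 2094 CPM outside, Cd9 at 201 and 346 CPM and Ctsk at 281 and 396 CPM. The part of free RNA in the count was not tested.

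The 3 leading genes of the gate were LAM genes that WT macrophages hardly expressed. Gpnmb, a transmembrane glycoprotein of lipid-laden macrophages, stood at 11.4 CPM in WT (93 UMIs) and 695 CPM in db/db 8w (12566 UMIs), 61.1-fold higher (log2 5.93, 5.64 to 6.24). Spp1, which encodes the secreted phosphoprotein osteopontin, stood at 4.04 and 132 CPM, 32.6-fold higher. Mmp12, the macrophage elastase, stood at 24.1 and 405 CPM, 16.8-fold higher. Outside the macrophage gate Gpnmb reached 163 CPM in WT and 234 CPM in db/db 8w, so the WT macrophages lay below their surroundings and those of db/db 8w above them. Spp1 and Mmp12 were low outside the gate, at 24.0 and 90.4 CPM in db/db 8w.

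Genes for lipid uptake and binding made up the next group. Fabp5, a fatty acid-binding protein, stood at 71.2 CPM in WT against 895 CPM in db/db 8w (12.6-fold higher). Lpl, the lipase that frees fatty acids from lipoproteins, stood at 320 and 2106 CPM (6.58-fold), though stromal cells express it as well and the level outside the gate was 2060 CPM in db/db 8w. Hilpda, which restrains the breakdown of stored triglyceride, stood at 89.2 and 582 CPM (6.52-fold). The fatty acid translocase Cd36 was 764 CPM in WT and 1766 CPM in db/db 8w (log2 1.21), and the droplet coat gene Plin2 was 878 and 1403 CPM (log2 0.68). Lgals3, which encodes the glycan-binding galectin-3, stood at 495 and 3741 CPM (7.56-fold).

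Lysosomal genes did not move as a block. Of 23 members 2 were at least 2-fold higher, beside 4.9% of all genes, and none was 2-fold lower. The median log2 ratio of the list was 0.20. Atp6v0d2, a subunit of the proton pump that acidifies the lysosome, accounted for the largest ratio, at 18.6 CPM in WT and 251 CPM in db/db 8w (log2 3.75, 3.52 to 3.99). Lamp1, a main membrane glycoprotein of the organelle, differed little, at 1268 and 1117 CPM. Among the cathepsins, proteases of this compartment held in the LAM list, Ctsk stood at 14.2 and 281 CPM (log2 4.31), beside 295 and 396 CPM outside the gate, and Ctsl at 624 and 2374 CPM (log2 1.93), whereas Ctsb stood at 4320 and 4058 CPM (log2 -0.09). Acp5, the tartrate-resistant acid phosphatase, was 7.16-fold higher, at 27.2 and 194 CPM.

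Cholesterol genes showed a mixed order. The nuclear receptor Nr1h3 stood at 10.6 CPM in WT and 38.0 CPM in db/db 8w (log2 1.84) and the exporter Abcg1 at 36.0 and 82.9 CPM (log2 1.20), while the exporter Abca1 was lower, at 272 and 189 CPM (log2 -0.52). The synthesis gene Hmgcs1 was at least 2-fold higher from a level under 50 CPM (log2 1.15). In all, 4 of 12 counted members were at least 2-fold higher and none was 2-fold lower.

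The remaining genes named by rank in this direction acted on matrix, motility and the cell cycle. Adam8, a membrane metalloprotease, stood at 22.5 CPM in WT and 208 CPM in db/db 8w (9.25-fold). Myo1e, a class I myosin, stood at 19.2 and 194 CPM (10.1-fold), and the cell cycle regulator Rgcc at 9.06 and 106 CPM (11.8-fold). WT macrophages held less Myo1e and Rgcc than the barcodes outside the gate, at 48.3 and 12.9 CPM.

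**Figure D2:**
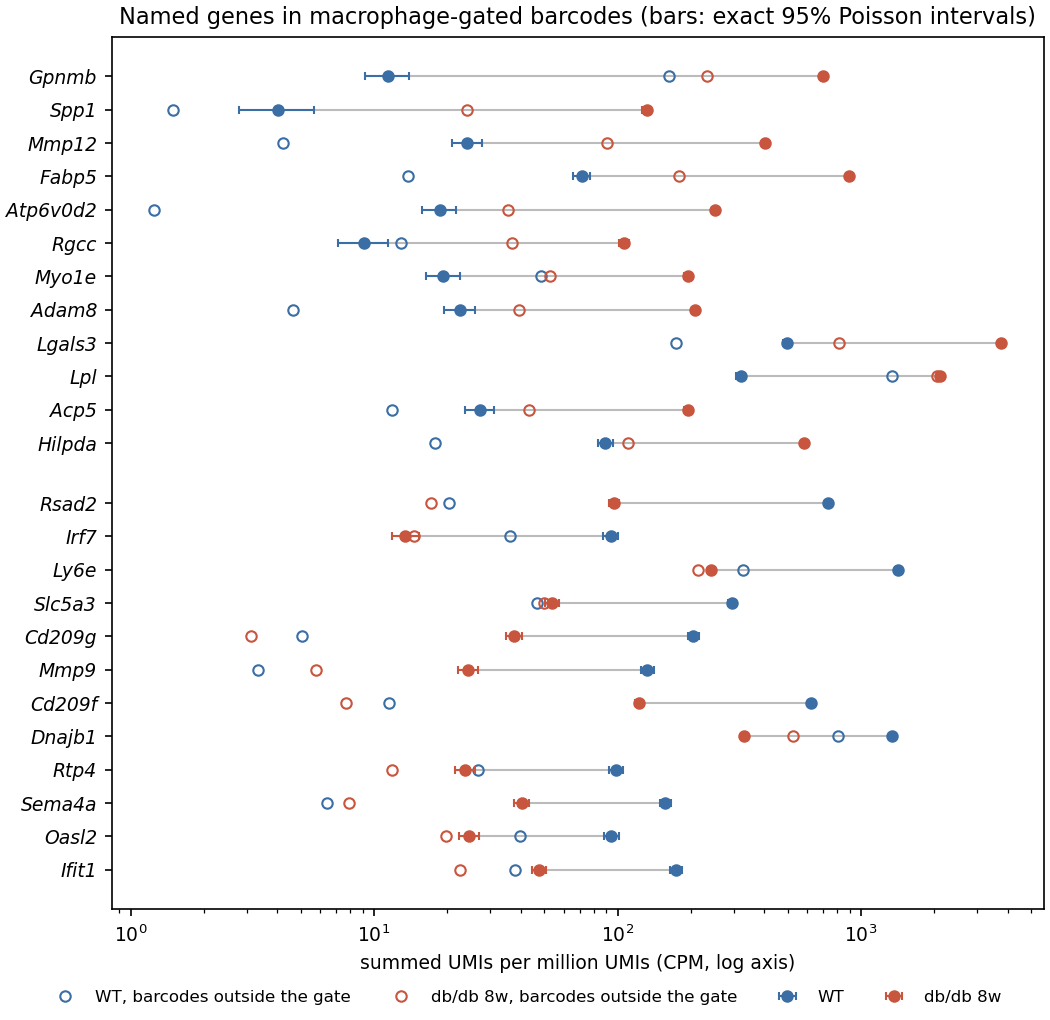
Levels (CPM, log axis) of the 12 highest and 12 lowest ranked genes of the macrophage gate in WT (blue) and db/db 8w (red), with exact 95% Poisson intervals, and open circles for barcodes outside the gate. Gpnmb stood at 11.4 CPM in WT against 695 CPM in db/db 8w, and Rsad2 from 732 to 97.0 CPM.

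PVM genes lay lower in db/db 8w, but less so than LAM genes lay higher. Of 20 members 8 were at least 2-fold lower and none was 2-fold higher, with a median log2 ratio of -0.81. The lectins Cd209f (622 CPM in WT and 123 CPM in db/db 8w) and Cd209g (205 and 37.6 CPM) differed most, 5.07-fold and 5.46-fold lower, though reads can be hard to place within this gene family. The ficolin Fcna stood at 1159 and 382 CPM (log2 -1.60) and Timd4, a receptor for dying cells, at 49.6 and 14.8 CPM (log2 -1.75). The hyaluronan receptor Lyve1 stood at 947 and 566 CPM (log2 -0.74), the mannose receptor Mrc1 at 997 and 867 CPM (log2 -0.20) and the chemokine Pf4 at 2197 and 2449 CPM (log2 0.16). PVM genes thus differed unevenly.

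The order of the summed PVM genes depended on depth. In those with at least 8000 UMIs, 755 of db/db 8w and 348 of WT, PVM genes summed to 5710 and 12738 CPM (log2 -1.16). Between 4000 and 8000 UMIs they were lower by less, at 12726 against 15035 CPM (log2 -0.24, -0.26 to -0.22). Between 2000 and 4000 UMIs they were higher in db/db 8w, at 14982 against 12880 CPM (log2 0.22, 0.19 to 0.25), and between 1000 and 2000 UMIs they stood at 11747 and 11726 CPM (log2 0.00, -0.08 to 0.09). LAM genes, in contrast, summed higher in db/db 8w in all 5 depth classes, with log2 ratios from 0.35 to 0.78. These summed ratios are smaller than the median of the list because Apoe and Ctsb, the largest members, hardly differed.

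**Figure D3:**
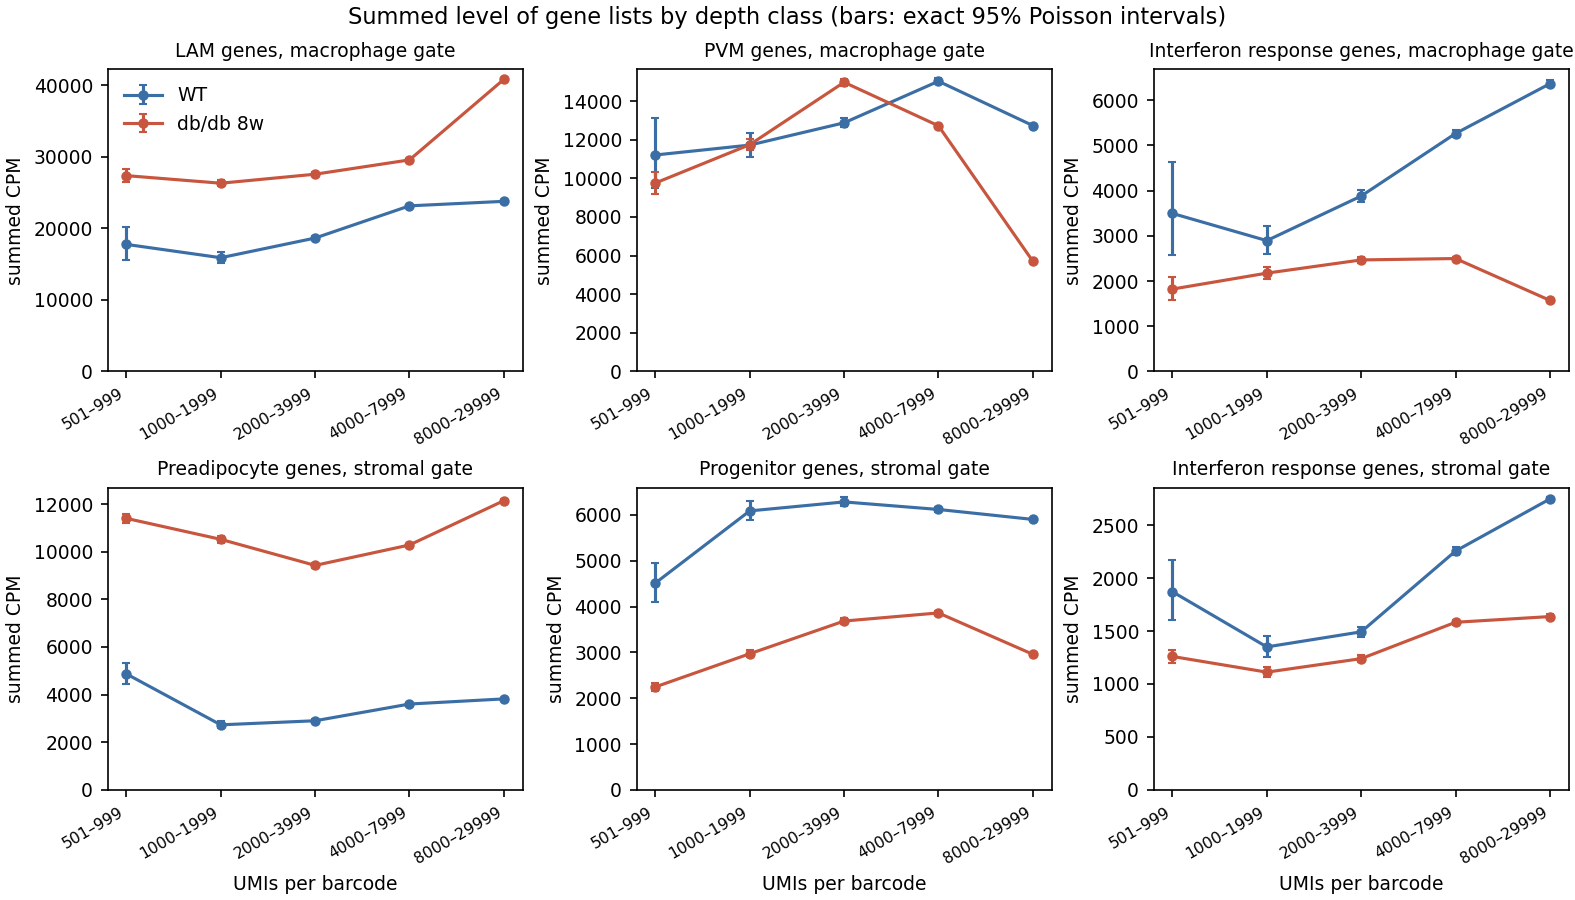
Summed CPM of gene lists (y axis) in 5 classes of UMIs per barcode (x axis) for WT (blue) and db/db 8w (red), with exact 95% Poisson intervals. PVM genes of db/db 8w lay below WT by most in the deepest class, at 5710 and 12738 CPM, and by less from 4000 to 8000 UMIs, at 12726 and 15035 CPM, whereas LAM, interferon, preadipocyte and progenitor genes kept their order in all 5 classes.

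Single barcodes were next sorted by 6 LAM genes (Trem2, Gpnmb, Cd9, Spp1, Mmp12 and Fabp5) and 6 PVM genes (Lyve1, Folr2, Cd163, Cd209f, Fcna and Cbr2), with at least 2 UMIs of a set after thinning to 1000 UMIs. As these sets were picked after their values had been seen, the shares are a description. Cd9 and Gpnmb of the LAM set were not particular to macrophages. In db/db 8w a Cd9 UMI was seen in 9.90% of thinned macrophage and 26.9% of thinned stromal barcodes. For Gpnmb these shares were 13.8% and 15.9%, whereas Trem2, Fabp5 and Mmp12 were seen more often in macrophages. The part of stromal RNA in the LAM-set share was not tested. Barcodes with the LAM set alone made up 22.2% of the gate in db/db 8w (20.7 to 23.8) and 1.31% in WT (0.748 to 2.11), and those with the PVM set alone 47.2% and 73.9%. The same shares were 59.7% and 11.6% in db/db mice of 16 weeks and 56.6% and 2.99% in mice on a high-fat diet. In db/db 8w barcodes with the PVM set alone thus outnumbered those with the LAM set alone, the reverse of the order in both other obese libraries. A share of 26.0% in db/db 8w and 23.5% in WT held neither set. In db/db 8w the LAM-set barcodes were deeper, with a median of 8992 UMIs before thinning, against 4308 in PVM-set barcodes.

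Within barcodes that carried the PVM set alone, some LAM genes were higher too. Lgals3 stood at 921 CPM in db/db 8w, while WT held 313 CPM (log2 1.56) and Lpl at 457 and 157 CPM (log2 1.55), while Ctsl was alike at 730 and 711 CPM. Lgals3 reached 815 CPM and Lpl 2060 CPM outside the macrophage gate of db/db 8w. For WT the same levels were 174 and 1345 CPM. The PVM-set barcodes thus lay above this level for Lgals3 and below it for Lpl, in both libraries. How much free RNA added to either gene was not tested. Mrc1 was higher in the PVM-set barcodes, at 1513 and 1094 CPM (log2 0.47), although it was lower over the whole gate. Cd209f was lower among them too, at 324 and 845 CPM (log2 -1.38), but as a gene of the set it took part in choosing them.

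Of the 12 genes ranked lowest in the gate, 4 were on the list of the interferon response, the set of antiviral genes that type I interferon induces, namely Rsad2, Irf7, Oasl2 and Ifit1. Of 12 counted members 10 were at least 2-fold lower in db/db 8w and none was 2-fold higher, with a median log2 ratio of -1.91, where 4.87% of all genes were 2-fold lower. Rsad2, which encodes the antiviral enzyme viperin, stood at 732 CPM in WT and 97.0 CPM in db/db 8w (log2 -2.92, -2.99 to -2.84), and 23.1% and 5.45% of thinned barcodes held a UMI. Irf7, a transcription factor that amplifies the response, stood at 93.7 and 13.4 CPM (log2 -2.80) and Ly6e, an interferon-induced surface protein, at 1424 and 241 CPM (log2 -2.56). Ifi27l2a, the most abundant member in WT, stood at 2435 and 715 CPM (log2 -1.77). The exceptions were Isg15, a ubiquitin-like protein, at 241 and 191 CPM (log2 -0.33, -0.41 to -0.25), and the membrane protein Ifitm3, at 1540 and 791 CPM (log2 -0.96).

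Promoters of interferon genes are shown because the response is known to be read through a short element in many of them. RefSeq promoters on GRCm38.p6, from 250 bases before to 50 bases after the start, were searched on both strands for GAAANNGAAA, the core of the interferon-stimulated response element. It was found in 1079 of 27025 genes with a promoter (3.99%). Of the 13 listed interferon genes 9 had a promoter in the table, too few for a share. Bst2, Ifit1, Ifit3, Ifitm3, Isg15 and Rsad2 held it, and Ifit2, Irf7 and Oasl2 did not in this window. Stretches upstream of the start are given for 5 of these genes on the gene's own strand, with matches in capitals and overlapping matches run together.
Ifit1, chr19:34640755-34640843, plus strand: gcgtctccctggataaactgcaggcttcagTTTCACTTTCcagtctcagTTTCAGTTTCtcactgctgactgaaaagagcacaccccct
Ifit3, chr19:34583343-34583446, plus strand: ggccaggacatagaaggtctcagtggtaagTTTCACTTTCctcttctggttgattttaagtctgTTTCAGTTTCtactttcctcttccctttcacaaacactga
Isg15, chr4:156200845-156200926, minus strand: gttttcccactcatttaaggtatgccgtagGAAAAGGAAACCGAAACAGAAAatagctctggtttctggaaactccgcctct
Rsad2, chr12:26456533-26456602, minus strand: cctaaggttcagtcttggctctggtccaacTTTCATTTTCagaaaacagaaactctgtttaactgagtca
Bst2, chr8:71537557-71537632, minus strand: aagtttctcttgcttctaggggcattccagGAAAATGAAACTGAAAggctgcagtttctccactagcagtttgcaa

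Matches did not sort the genes by their ratio. Isg15 held 3 overlapping matches and had the smallest ratio of the list, whereas Ifit3, with 2 separate matches, had the largest, at 29.4 CPM in WT and 3.76 CPM in db/db 8w (log2 -2.96). Ifit1, an RNA-binding antiviral protein, stood at 174 and 47.5 CPM (log2 -1.87), and Bst2, the tether that holds budding virus, at 165 and 49.5 CPM (log2 -1.74).

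The lower interferon level was seen in every marker-set class and depth class of macrophages. In barcodes with the PVM set alone the list summed to 3194 CPM in db/db 8w, while WT held 5841 CPM (log2 -0.87), in those with neither set to 1687 and 5324 CPM (log2 -1.66), and in those with the LAM set alone to 906 and 3245 CPM (log2 -1.84). The last pair rests on 16 WT barcodes. By depth the log2 ratio ran from -0.41 at 1000 to 2000 UMIs to -2.02 at 8000 UMIs or more. Cxcl10, an interferon-induced chemokine of the inflammatory list, was also lower, at 562 CPM in WT and 270 CPM in db/db 8w (log2 -1.06).

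Inflammatory genes split by kind. Cxcl1 and Cxcl2, neutrophil attractants, stood at 1189 and 7637 CPM in WT and at 3726 and 15721 CPM in db/db 8w (log2 1.65 and 1.04). Il1rn, the natural antagonist of interleukin 1, stood at 107 and 218 CPM (log2 1.03), Tnf at 449 and 797 CPM (log2 0.83) and Il1b at 1648 and 2393 CPM (log2 0.54). The macrophage chemokines Ccl3 (531 and 292 CPM) and Ccl4 (2706 and 2003 CPM) and the prostaglandin synthase Ptgs2 (577 and 333 CPM) were lower. Of 20 members 3 were at least 2-fold higher and 1 was 2-fold lower, beside 4.9% and 4.87% of all genes. The median log2 ratio of the list was -0.04. The summed level, which Cxcl2 leads, was 35171 CPM in db/db 8w, while WT held 25951 CPM, but 2430 CPM in db/db mice of 16 weeks. The ratio of the sums depended on depth. Its log2 ran from 0.87 to 1.20 in the classes under 8000 UMIs and was 0.08 at 8000 UMIs or more.

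Genes that respond to tissue handling and heat lay lower in db/db 8w. Of 16 immediate-early and heat-shock genes 8 were at least 2-fold lower in db/db 8w macrophages and all were below WT, with a median log2 ratio of -0.99. Jun stood at 3973 CPM in WT and 1388 CPM in db/db 8w (log2 -1.52) and Dnajb1, a co-chaperone of Hsp70, at 1344 and 332 CPM (log2 -2.02). The part of these genes in the other differences was not tested. In the stromal gate none of the 16 differed by 2-fold, with a median of -0.37.

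Besides Ly6e and the interferon-inducible Rtp4, at 98.6 and 23.7 CPM, 3 of the genes ranked lowest were on no list. Slc5a3, which imports myo-inositol, stood at 295 CPM in WT and 53.9 CPM in db/db 8w (log2 -2.45), the gelatinase Mmp9 at 132 and 24.3 CPM (log2 -2.45) and the semaphorin Sema4a at 157 and 40.4 CPM (log2 -1.96).

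Complement genes were lower as well, 4 of 8 by at least 2-fold, beside 4.87% of all genes, with a median log2 ratio of -1.08. Cfb, a protease of the alternative pathway, stood at 169 CPM in WT and 34.6 CPM in db/db 8w (log2 -2.29), beside 214 and 84.8 CPM outside the gate, and the stabilising factor Cfp at 979 and 304 CPM (log2 -1.69). C3 stood at 165 and 41.7 CPM, but stromal cells were its main source, with 3910 CPM in WT, and free RNA cannot be told apart from expression here. Among iron genes the heme oxygenase Hmox1 stood at 1278 and 493 CPM (log2 -1.38) and the iron exporter Slc40a1 at 23.3 and 10.1 CPM (log2 -1.21), whereas the ferritin chains Fth1 (log2 0.57) and Ftl1 (log2 0.85) were higher. Antigen-presenting MHC class II genes were modestly lower without a 2-fold difference in any of 8 counted members, from 6766 to 5421 CPM for the invariant chain Cd74.

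Monocyte genes went both ways. Ly6c2 stood at 19.7 CPM in WT and 0.885 CPM in db/db 8w, Plac8 at 147 and 11.9 CPM, and the chemokine receptor Ccr2 at 123 and 56.9 CPM. The secreted lectin Chil3 stood at 3.06 and 32.0 CPM, S100a4, a calcium-binding protein, at 272 and 1056 CPM, and Fn1, or fibronectin, at 243 and 505 CPM. Outside the gate Fn1 was higher, at 2071 and 1596 CPM, as was Plac8, at 542 and 69.6 CPM. Reads of Ly6c2 can be hard to tell from those of its close copy Ly6c1. Among receptors for dying cells, Timd4, Stab1 and the bridging ligand Gas6 were at least 2-fold lower, while Cd36, the bridging protein Mfge8 and its integrin chain Itgav were at least 2-fold higher, the last 2 with log2 ratios of 1.80 each. Mfge8 stood at 12.5 and 43.3 CPM in the gate and at 157 and 154 CPM outside it.

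Glycolytic and respiratory genes were higher together by modest ratios. Among all genes of the gate 4.9% were at least 2-fold higher. Of 13 counted glycolysis genes 5 were at least 2-fold higher and none was 2-fold lower, with a median log2 ratio of 0.75. Gapdh stood at 167 CPM in WT and 428 CPM in db/db 8w (log2 1.36), Ldha, which makes lactate, at 104 and 268 CPM (log2 1.37) and Pkm at 122 and 291 CPM (log2 1.26). All 26 nuclear-encoded respiratory chain genes had a ratio above 0, 2 of them at least 2-fold, with a median of 0.62 and the largest ratio in Atp5b of the ATP synthase (136 and 327 CPM). Cell cycle genes were at least 2-fold higher in 5 of 12 counted members, among them Mki67, at 39.4 and 96.6 CPM (log2 1.29), and Birc5, at 5.87 and 26.7 CPM (log2 2.19). The list of nuclear-retained RNAs, which also holds the protein-coding Nova1, went the other way, with the long RNA Neat1 at 1399 and 558 CPM (log2 -1.33).

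**Figure D4:**
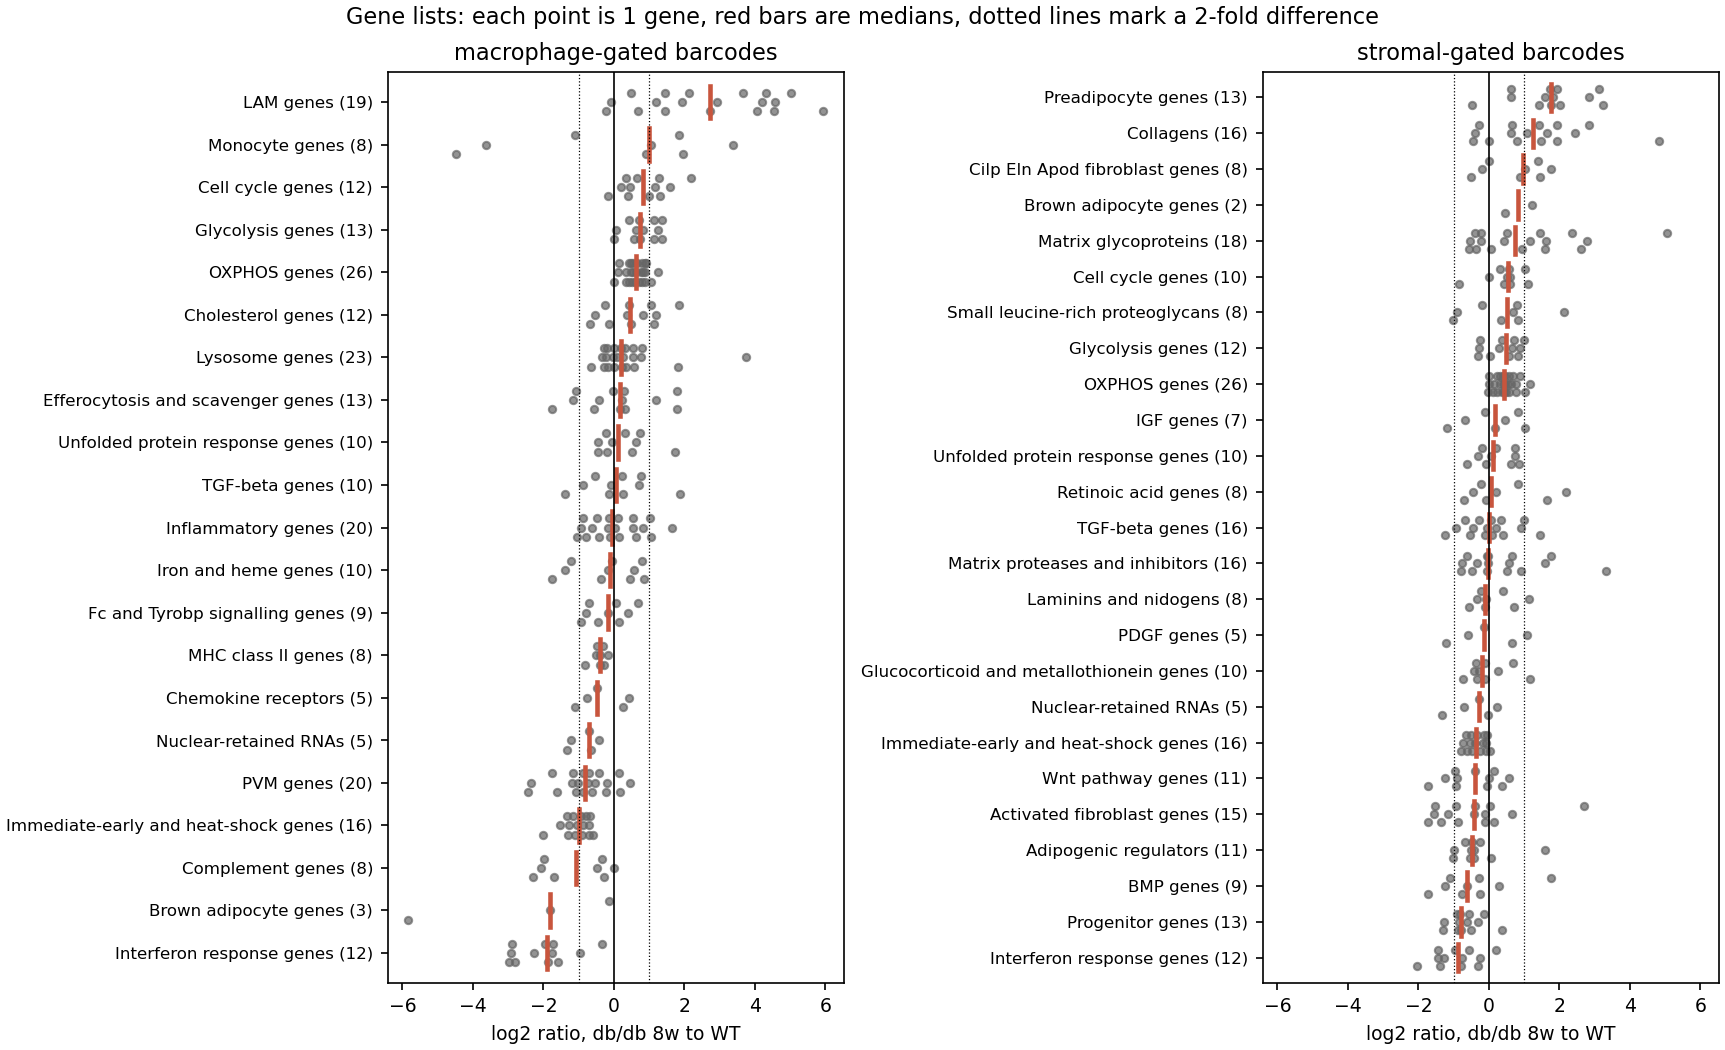
Log2 ratios of db/db 8w to WT for each counted gene (grey points) of the gene lists in both gates, with the list median (red bar), the number of genes in brackets and dotted lines at a 2-fold difference. LAM genes (median 2.72) and interferon response genes (-1.91) stood at the ends in the macrophage gate, and preadipocyte genes (1.77) and interferon response genes (-0.88) in the stromal gate.

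In the stromal gate 8342 genes averaged at least 10 CPM. At least 2-fold higher in db/db 8w were 387 of them, 4.64%, and 233 were at least 2-fold lower, 2.79%, with a median log2 ratio of 0.02 over all genes. Preadipocyte genes stood furthest above this background, with 10 of 13 at least 2-fold higher, none 2-fold lower and a median log2 ratio of 1.77. Col15a1, a basement membrane collagen that marks committed preadipocytes, stood at 58.5 CPM in WT and 418 CPM in db/db 8w (7.14-fold, log2 2.84, 2.77 to 2.90). Sparcl1, a matricellular protein, stood at 88.8 and 769 CPM (8.66-fold), with 5.68% of thinned barcodes holding a UMI in WT and 36.4% in db/db 8w. Pparg, the master regulator of adipocyte formation, stood at 7.38 and 22.2 CPM (log2 1.59). Col15a1 was scarce outside the gate, at 8.29 CPM in db/db 8w.

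Not all members of this list are particular to the stroma. The 13 genes summed to 3700 CPM in the WT stroma and 11005 CPM in that of db/db 8w. Outside the stromal gate they summed to 14681 and 17295 CPM, so the list count needs the reserve of free RNA. Fabp4 is 1 such member. It stood at 224 CPM in the WT stroma and 2108 CPM in that of db/db 8w (9.40-fold), but barcodes outside the stromal gate held 2053 CPM in db/db 8w. A UMI was seen in 47.9% of thinned stromal barcodes and 45.2% of thinned macrophage barcodes of that library, against 8.71% and 9.87% in WT. The other adipogenic regulators did not follow Pparg. Cebpa was alike at 23.5 CPM in WT and 24.6 CPM in db/db 8w, Cebpd stood at 911 and 459 CPM (log2 -0.99), the brown fat factor Ebf2 at 225 and 141 CPM (log2 -0.68) and the circadian factor Klf15 at 17.5 and 8.60 CPM (log2 -1.02). The list had a median log2 ratio of -0.48 over 11 counted genes.

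Progenitor genes lay lower, 2 of 13 by at least 2-fold, beside 2.79% of all stromal genes, with a median log2 ratio of -0.80. Dpp4, a surface peptidase, stood at 522 CPM in WT and 213 CPM in db/db 8w (log2 -1.29), the annexin Anxa3 at 669 and 274 CPM (log2 -1.28) and Pi16, a secreted peptidase inhibitor, at 2116 and 1157 CPM (log2 -0.87). Wnt2 was the exception, at 26.2 and 33.9 CPM (log2 0.37). In contrast to PVM genes, this order held in every depth class, with log2 ratios of the sums from -1.03 to -0.66, and preadipocyte genes summed higher in every class, from 1.23 to 1.94.

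Stromal barcodes were then sorted by 6 preadipocyte genes (Col15a1, Col4a1, Col4a2, Sparcl1, Pparg and Bgn) and 6 progenitor genes (Pi16, Dpp4, Anxa3, Sema3c, Pcolce2 and Efhd1), again after thinning and again as a description. The preadipocyte set alone was held by 50.5% of the gate in db/db 8w (49.2 to 51.8) and 15.5% in WT (14.4 to 16.6), and the progenitor set alone by 23.2% and 64.5%. In db/db mice of 16 weeks these shares were 93.4% and 1.24%, and under the high-fat diet 77.3% and 7.11%. Both sets together were held by 15.5% and 10.3%. The WT stroma thus held mostly progenitor-set barcodes and that of db/db 8w mostly preadipocyte-set barcodes.

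Collagen genes other than the gate genes were higher in 9 of 16 counted members by at least 2-fold and lower in none, with a median log2 ratio of 1.25. The increase did not touch the bulk fibrillar chain, as Col1a2 stood at 8605 CPM in WT and 8598 CPM in db/db 8w (log2 0.00). It lay in the basement membrane chains Col4a1 (785 and 2110 CPM) and Col4a2 (263 and 1003 CPM), in the beaded filament chains Col6a1, Col6a2 and Col6a3 (log2 1.07, 1.48 and 1.64) and in Col5a3 (213 and 819 CPM). Col4a1 and Col4a2 are also on the preadipocyte list, so the counts of both lists overlap. Col8a1, a short-chain collagen of vessels and scars, showed the largest ratio, at 1.79 and 50.6 CPM (log2 4.82, 4.46 to 5.20). Col18a1, the source of endostatin, stood at 29.3 and 160 CPM (5.46-fold). Col14a1, a fibril-associated chain of progenitors, was lower, at 892 and 647 CPM (log2 -0.46).

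Glycoproteins of the matrix were at least 2-fold higher in 8 of 18 members and lower in none. Tnc, or tenascin C, stood at 0.606 CPM in WT, from 22 UMIs, and at 20.2 CPM in db/db 8w (log2 5.06). The fibre proteins Fbln2 (369 and 1117 CPM), Mfap4 (12.1 and 83.0 CPM) and Eln (227 and 626 CPM), the matricellular genes Postn (232 and 713 CPM) and Ccn2 (22.7 and 116 CPM) and the adhesive glycoprotein Thbs1 (33.6 and 204 CPM) completed the group, with Emilin1. Thbs1 was as high outside the gate of db/db 8w, at 202 CPM, and at 164 CPM outside that of WT. The proteoglycan Bgn stood at 280 and 1220 CPM (log2 2.12), whereas Ogn, of the same family, stood at 871 and 468 CPM (log2 -0.90). Laminins and nidogens had a median of -0.10 over 8 members, and Nid2 alone passed 2-fold, at 26.5 and 58.3 CPM (log2 1.14).

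The highest stromal gene by rank, apart from hemoglobins, was Mgp, an inhibitor of calcification. It stood at 43.5 CPM in WT and 744 CPM in db/db 8w (17.1-fold, log2 4.09, 4.02 to 4.17), and outside the gate at 14.6 CPM in db/db 8w. Timp1, the inhibitor of matrix metalloproteases, stood at 20.7 and 207 CPM (9.98-fold), while its relatives Timp2 (3452 and 2034 CPM) and Timp3 (568 and 549 CPM) were lower or alike. Cthrc1, a secreted protein of repairing fibroblasts, stood at 12.2 and 119 CPM (9.72-fold), at 140 CPM in db/db mice of 16 weeks and at 24.3 CPM under the high-fat diet. Nrep, a small protein linked to myofibroblasts, stood at 33.2 and 198 CPM (5.98-fold).

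Hemoglobin genes led the stromal ranking, although they belong to red cells. Hbb-bs stood at 1.76 CPM in the WT stroma (64 UMIs) and 388 CPM in that of db/db 8w (12504 UMIs), and Hba-a1 and Hba-a2, whose near-identical reads can be split between them, behaved alike. In db/db 8w the level outside the gate was similar, at 327 CPM, and 4.72% of thinned stromal and 2.35% of thinned macrophage barcodes held an Hbb-bs UMI. In WT the level outside the gate was 298 CPM, but only 0.250% of thinned stromal barcodes held one. Barcodes with at least 3 erythroid UMIs were 4.10% of the db/db 8w stromal gate and 0.0442% of the WT one.

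**Figure D5:**
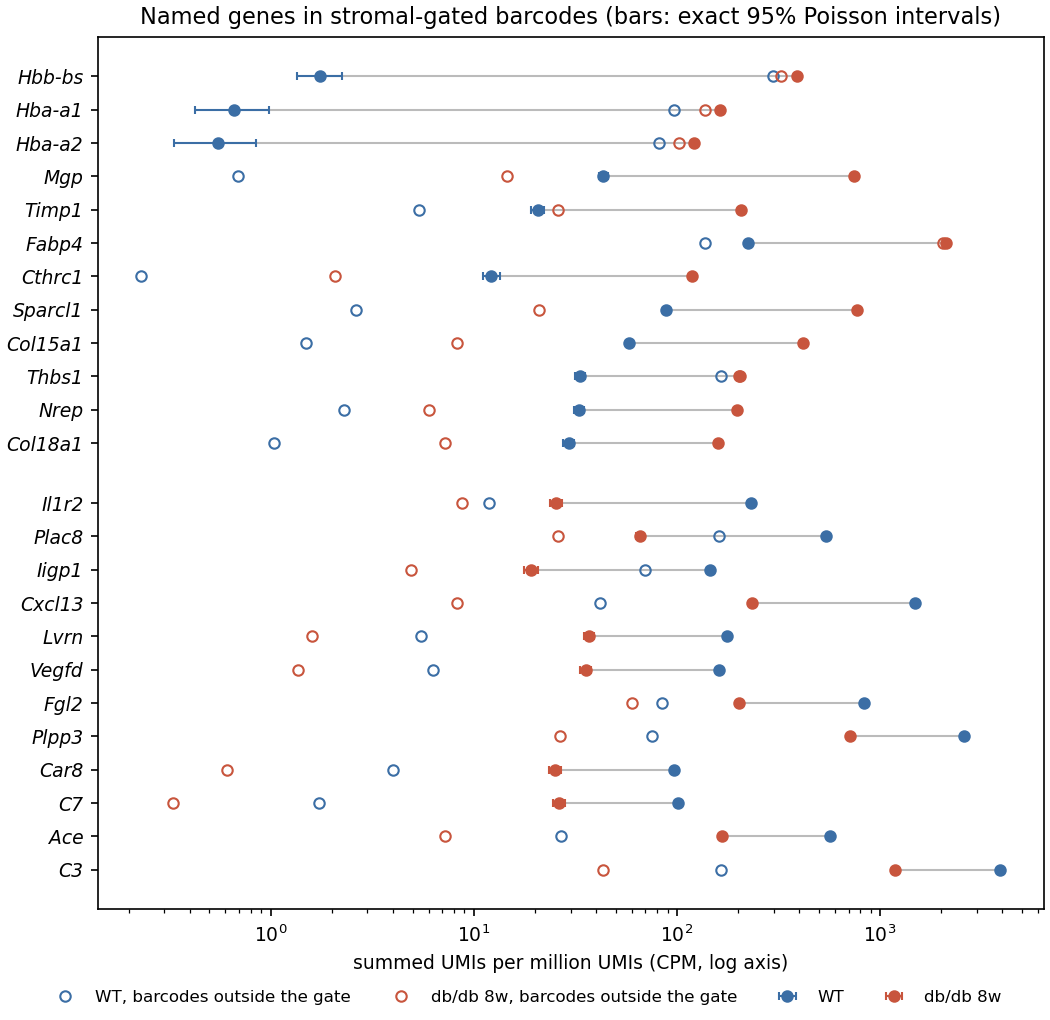
Levels (CPM, log axis) of the 12 highest and 12 lowest ranked genes of the stromal gate in WT (blue) and db/db 8w (red), with exact 95% Poisson intervals, and open circles for barcodes outside the gate. Mgp stood at 43.5 CPM in WT against 744 CPM in db/db 8w, whereas Cxcl13 went from 1480 to 233 CPM, and the 3 hemoglobin genes of db/db 8w lay close to their level outside the gate.

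The genes ranked lowest in the db/db 8w stroma included immune mediators and complement factors. Il1r2, the decoy receptor that traps interleukin 1, stood at 233 CPM in WT and 25.4 CPM in db/db 8w (9.18-fold lower, log2 -3.20, -3.30 to -3.10). Cxcl13, the B cell attractant, stood at 1480 and 233 CPM (6.34-fold lower), and the share of thinned barcodes with a UMI was 39.5% and 8.33%. Plac8 stood at 544 and 65.9 CPM (8.25-fold lower), C3, the central complement protein, at 3910 and 1188 CPM (3.29-fold lower) while C7, of the membrane attack complex, was 3.86-fold lower. Iigp1, an interferon-inducible GTPase, stood at 145 and 19.2 CPM (7.59-fold lower). It was 25.2 CPM in db/db mice of 16 weeks but 324 CPM under the high-fat diet.

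The other genes of this group were enzymes and a growth factor. Plpp3, a phosphatase of bioactive lipids, was the most abundant after C3, at 2603 CPM in WT and 712 CPM in db/db 8w (3.65-fold lower). Ace, the angiotensin-converting enzyme, stood at 568 and 166 CPM (3.42-fold lower), the aminopeptidase Lvrn at 176 and 37.0 CPM (4.76-fold lower) and Vegfd, a lymphatic growth factor, at 162 and 35.6 CPM (4.54-fold lower). Fgl2, a fibrinogen-like protein, stood at 832 and 203 CPM and Car8, a carbonic anhydrase relative, at 97.4 and 25.1 CPM.

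Cxcl13, Plac8 and C3 were lower within both main marker-set classes of the stroma. In barcodes with the progenitor set alone Cxcl13 stood at 113 CPM in db/db 8w, while WT held 1363 CPM (log2 -3.59), and in those with the preadipocyte set alone at 297 and 1824 CPM (log2 -2.62). Plac8 had log2 ratios of -2.21 and -2.75 in the same classes, and C3 of -0.83 and -2.09. Col6a3, in contrast, differed in direction between them. It was higher in db/db 8w among preadipocyte-set barcodes, at 2448 and 1273 CPM (log2 0.94), and lower among progenitor-set barcodes, at 159 and 277 CPM (log2 -0.80).

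Genes of the activated fibroblast state were lower more often than higher, 5 against 1 of 15 counted members by at least 2-fold, with a median log2 ratio of -0.42. The hyaluronan synthase Has1 (274 CPM in WT and 107 CPM in db/db 8w), the pentraxin Ptx3 (274 and 122 CPM), Ptgs2 (317 and 110 CPM) and the alarmin Il33 (59.8 and 20.4 CPM) were among the 5, with C3. The acute-phase gene Saa3 was the one higher, at 2.86 and 18.8 CPM (log2 2.71). Cxcl1 stood at 473 and 745 CPM (log2 0.65).

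Genes of developmental pathways differed in both directions, and few passed 2-fold. Over all stromal genes 4.64% were at least 2-fold higher and 2.79% lower. Of 11 Wnt genes 2 were 2-fold lower, and of 9 BMP genes 1 was higher and 3 were lower. Among 16 TGF-beta genes, and also among 7 IGF genes, 1 was higher and 1 lower. Of 8 retinoid genes 2 were higher and none was lower. Counts this small do not describe a pathway, and the genes below are examples. In the Wnt list the secreted inhibitor Sfrp2 stood at 751 CPM in WT and 227 CPM in db/db 8w (log2 -1.72) and the enhancer Rspo3 at 55.3 and 23.3 CPM (log2 -1.25), and no member of 11 was 2-fold higher. Among BMP genes Bmp4 stood at 61.0 and 25.7 CPM, the antagonist Chrdl1 at 239 and 72.3 CPM (log2 -1.72) and the target Id3 at 1380 and 643 CPM, whereas the target Id1 stood at 11.0 and 36.8 CPM (log2 1.75). The TGF-beta co-receptor Tgfbr3 stood at 702 and 298 CPM (log2 -1.24) and the ligand Tgfb1 at 18.1 and 49.4 CPM (log2 1.45), beside 161 and 190 CPM outside the gate, and the list as a whole had a median of 0.00 over 16 members. Among IGF-binding proteins Igfbp4 was lower (1407 and 619 CPM) and Igfbp7 higher (507 and 1032 CPM). The PDGF list held 1 of 5 genes in each direction. In the retinoid list Cyp26b1, which degrades retinoic acid, stood at 13.7 and 62.1 CPM (log2 2.18).

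Interferon response genes were lower in the stroma too, 5 of 12 counted members by at least 2-fold and none 2-fold higher, with a median log2 ratio of -0.88. Ifi27l2a stood at 941 CPM in WT and 347 CPM in db/db 8w (log2 -1.44), Usp18, a brake on interferon signalling, at 31.2 and 7.64 CPM (log2 -2.03) and Bst2 at 154 and 59.3 CPM (log2 -1.38). Isg15 was 35.0 and 40.3 CPM (log2 0.20). Rsad2, 7.55-fold lower in the macrophages of db/db 8w, was near the same level in both stromal gates, at 18.1 and 15.3 CPM. The list summed lower in all 5 depth classes, from -0.27 to -0.75 on the log2 scale. In both libraries Rsad2 stood lower in the stroma than in the macrophages.

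Markers of mature brown adipocytes were low in both stromal gates, and 2 of 13 passed 10 CPM. The list summed to 37.0 CPM in WT and 72.7 CPM in db/db 8w (log2 0.97), led by Car3, at 22.8 and 53.3 CPM (log2 1.22). Ucp1 stood at 0.193 CPM in WT and 2.02 CPM in db/db 8w and Adipoq, or adiponectin, at 2.61 and 4.29 CPM. Cfd, or adipsin, went the other way over all kept barcodes, at 12.3 and 0.468 CPM. Respiratory chain genes had a median log2 ratio of 0.43 over 26 members and glycolysis genes of 0.47 over 12, both smaller than in the macrophages.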

How the data were processed

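The authors deposited raw counts of UMIs for every gene and barcode, made from 10x Genomics 3′ libraries with Cell Ranger (7.1.0 by the submitters' processing notes, 6.0.0 by the headers of the count files) on mm10. The sorting gate used before loading was not given in the sources used here. The study's subsampling and integration were not repeated. Counts were summed per gate and divided by all UMIs of the gate (CPM), with Python 3.11.15, numpy 2.4.6 and scipy 1.17.1. Of 40 symbols that occur more than once, the row with the most UMIs was used. Ratios were given intervals from the exact conditional binomial, levels from the exact Poisson and shares from Clopper-Pearson, all at 95%. They cover counting error only. A count of 0 was set to 3. The code was tested on simulated counts.

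Genes that averaged at least 10 CPM were counted, gate genes excepted, and a 2-fold ratio was the threshold. Genes were named by the ratio bound nearest 0, the 12 highest and 12 lowest per gate, among genes of at least 50 CPM on average that were no lower inside than outside the gate in the library where they were higher; mitochondrial, ribosomal and unnamed genes were left out. Members of 37 lists were named as well. The libraries, gates, lists and rules were chosen with earlier results of these data known. No doublet caller was run, and mixed barcodes were left out in alternatives instead. Gene names came from the files and promoters from RefSeq. The alternatives covered the gate, depth, mitochondrial limit, level, scaling and filter. Some genes counted within the lists are not reported here by name.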

Additional observations from a re-analysis of the deposited data

Results flagged for a closer look

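Among the listed and named genes, 2 differed by at least 2-fold in opposite directions in the macrophage and the stromal gate. The difference between gates was not tested. Folr2, a folate receptor of PVMs, had a log2 ratio of -1.01 in the macrophage gate (1076 CPM in WT and 533 CPM in db/db 8w) and of 1.10 in the stromal gate (18.7 and 40.3 CPM). Its stromal level was a small part of that outside the stromal gate, at 1012 and 459 CPM. Car3, a carbonic anhydrase abundant in adipocytes, had a log2 ratio of -1.81 in the macrophage gate (19.9 and 5.70 CPM) and of 1.22 in the stromal gate (22.8 and 53.3 CPM). Groups of 1 library allow no search for libraries that stand apart.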

How the results depend on the processing

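The order of the libraries turned in 1 result: without a mitochondrial limit the macrophage-gated share differed by -2.41 points. With 10 UMIs for a gate, at most 1 UMI of the other lineage, at least 1000 UMIs, or a mitochondrial limit of 10% it differed by 1.07, 6.36, 6.86 and 8.23 points. The stromal-gated share differed by -15.0, -14.7, -13.3 and -13.9 points under these, by -13.4 after thinning to 1000 UMIs and by -4.35 without a mitochondrial limit. Counts of genes followed the filter. At a mean of 50 CPM, with no filter and with 10 CPM added, 140, 1290 and 202 genes were 2-fold higher and 118, 2235 and 176 lower in macrophages, and 123, 2506 and 226 higher and 88, 1246 and 117 lower in stroma. The median log2 ratio of LAM genes was 2.26 with the strict gate, 2.82 with a gate at 0.1% of UMIs, 2.09 thinned, 2.64 at the 10% limit, 2.55 as a mean of barcodes, 2.43 at 50 CPM and 2.29 with 10 CPM added. That of PVM genes was -0.76 with 10 UMIs, -0.61 with the strict gate, -0.74 with a gate at 0.1%, -0.38 thinned and -0.53 as a mean of barcodes. That of collagens was 1.30 with 10 UMIs, 1.33 with the strict gate, 1.27 at 1000 UMIs, 1.19 thinned, 1.28 at the 10% limit, 1.21 with no limit, 1.08 as a mean of barcodes, 1.23 centred on the median gene and 1.43 with no filter. Interferon genes had medians of -2.18 with the strict gate and -1.57 with 10 CPM added in macrophages, and of -1.06 thinned, -1.38 at 50 CPM and -0.65 with 10 CPM added in stroma. Preadipocyte genes had 1.63 with 10 CPM added, and progenitor genes -0.66 thinned and -0.72 with 10 CPM added. The cause of these shifts was not tested. The 48 genes named by rank kept a 2-fold difference in the same direction in all 576 values over 12 alternatives. They were picked for large ratios in the same data, so this count is no independent support. Both alternatives given next and the interferon, preadipocyte and progenitor medians were chosen after seeing the data. One left out 843 barcodes of db/db 8w and 109 of WT with markers of another class, the other left mitochondrial and ribosomal UMIs out of the total. No paired analysis was possible because each group had 1 library and no test was run. Depth limits genes of few UMIs, such as Lepr.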

Other observations

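Smaller gene groups that the report does not describe showed few 2-fold differences in the macrophage gate. Among all genes compared there, 4.9% were at least 2-fold higher and 4.87% lower. A count of 1 in 10 does not describe a group. Fc receptor and Tyrobp signalling genes, which relay antibody and Trem2 signals, held none among 9 members, with a median log2 ratio of -0.16. Of 10 genes of the unfolded protein response 1 was 2-fold higher, Sdf2l1, an endoplasmic reticulum co-chaperone, at 36.2 CPM in WT and 120 CPM in db/db 8w (log2 1.72). Of 10 TGF-beta genes the type I receptor Tgfbr1 was higher, at 10.2 and 37.2 CPM (log2 1.87), and Tgfbr3 lower, at 26.6 and 10.1 CPM (log2 -1.39), the latter beside 693 and 273 CPM outside the gate. Of 5 counted chemokine receptors only Ccr2 passed 2-fold, with a median of -0.47. Brown adipocyte genes had 3 counted members with a median of -1.81, among them Cfd, at 25.2 and 0.443 CPM.

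Of all genes compared in the stromal gate 4.64% were at least 2-fold higher and 2.79% lower. Genes of the Cilp, Eln and Apod fibroblasts were 2-fold higher in 4 of 8 members, with a median of 0.96. They were Cilp, a cartilage matrix protein (60.8 and 205 CPM), Eln, the ligand Gdf10 (43.0 and 112 CPM) and the coagulation starter F3 (72.6 and 149 CPM). Matrix proteases and inhibitors were 2-fold higher in 3 of 16 counted members and lower in none, with a median of -0.02. Besides Timp1 these were Adamts15 (11.1 and 33.6 CPM) and Mmp19 (34.3 and 117 CPM), and Mmp19 was as high outside the gate of db/db 8w, at 123 CPM. Small leucine-rich proteoglycans had a median of 0.52, with Bgn 2-fold higher and Omd 2-fold lower among 8. Of 10 glucocorticoid and metallothionein genes 1 was 2-fold higher, the kinase Sgk1 (70.0 and 156 CPM). Cell cycle genes had a median of 0.54, with Mki67 (14.0 and 30.4 CPM) and Stmn1 2-fold higher of 10. No gene of the unfolded protein response passed 2-fold among 10, with a median of 0.13. Of 5 genes on the list of nuclear-retained RNAs Nova1 alone was 2-fold lower, at 330 and 131 CPM (log2 -1.33). It is a protein-coding gene, unlike the long RNAs of that list.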
